A study of Mus musculus and Homo sapiens with 9 samples.

Results

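Polycomb and DNA methylation regulators were followed in leukaemic T cells depleted of IRF2BP2 and in normal mouse T cells that lack it. They comprised 10 genes taken by symbol, namely EZH2, EED, SUZ12, DNMT1, DNMT3A, DNMT3B, UHRF1, TET1, TET2 and CBX5. In the human table they were 10 of 64252 rows, and in the mouse table, where the same symbols are written in mouse case, 10 of 43432 rows. All 10 passed the filter on low counts in both tables, among 15819 human and 15350 mouse genes tested.

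Cells keep genes silent through marks on histones and on DNA. The Polycomb repressive complex PRC2, with the methyltransferase EZH2 and the core subunits EED and SUZ12, puts methyl groups on lysine 27 of histone H3. DNMT3A and DNMT3B place new methyl groups on cytosine, whereas DNMT1 copies them after replication and needs UHRF1, which binds hemimethylated DNA. TET1 and TET2 oxidise methylated cytosine and so open the way to its removal, and CBX5 (HP1 alpha) binds methylated lysine 9 of histone H3 in heterochromatin. Lesions in PRC2 genes are known in T cell acute lymphoblastic leukaemia (T-ALL), and loss of TET2 or DNMT3A function is known in T cell lymphoma. DNMT1, UHRF1 and EZH2 are usually more abundant in cycling cells.

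The human libraries came from J.gamma1, a T-ALL line derived from Jurkat, so that they hold the genome of a single line. The cells carried a lentiviral pLKO.1 vector with a control hairpin (sh-NC, 2 libraries) or with a hairpin against IRF2BP2 (sh-IRF2BP2, 2 libraries). IRF2BP2 is a transcriptional cofactor. Which of the study's hairpins was sequenced is not given in the sources used here, nor are separate cultures, so that the p-values measure the spread between these libraries, which may be technical. The mouse libraries came from CD3+ T cells sorted from spleen, 2 from Irf2bp2 knockout animals (Vav-iCre+/-;Irf2bp2fl/fl) and 3 from controls. The labels call the controls wild type, whereas the study's text gives its controls as Vav-iCre-/-;Irf2bp2fl/fl, in which case every mouse carried the floxed allele. Vav-iCre acts across the blood lineage, so that the deletion was not limited to T cells, and strain and age of these animals are not in the labels.

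Total counts lay between 26648204 and 31120236 in the J.gamma1 libraries and between 16668577 and 37177523 in the mouse libraries, the lowest being control replicate 3. Levels below are CPM, counts relative to the TMM-scaled library size. IRF2BP2 had 204 and 199 CPM with sh-NC and 79.0 and 93.8 CPM with sh-IRF2BP2 (log2 fold change -1.22, SE 0.131, adjusted p = 0.0023). Irf2bp2 had 4145, 4594 and 1915 counts in the controls and 0 and 0 counts in the knockout libraries. All 13 T cell markers were detected in every library of both species. A gene was called when edgeR's quasi-likelihood test gave it an adjusted p under 0.05, with the Benjamini-Hochberg method applied over all genes of its table. Whether groups overlapped is given only as a description of the few libraries, as the share of all genes without overlap is not given.

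In J.gamma1 cells, transcripts of the cytosine demethylation enzymes TET1 and TET2 rose after IRF2BP2 knockdown, and those of the heterochromatin protein CBX5 fell. The 7 other genes, which include the whole PRC2 core and all 3 DNA methyltransferases, were not called. The rise was 2.19-fold for TET1 and 1.87-fold for TET2, and CBX5 was 1.64-fold lower. Thus 2 of 10 members were called higher and 1 lower, beside 5.83% higher (923 genes) and 5.32% lower (841 genes) among all genes tested. The median log2 fold change was 0.01 over the 10 members (0.0057) and likewise 0.01 over all genes (0.0067). Over all genes, the higher and lower calls numbered 1863 and 1384 without sh-NC replicate 1, 418 and 419 without sh-IRF2BP2 replicate 1, and 518 and 516 without sh-IRF2BP2 replicate 2. With so few members, these shares describe the 10 genes and are no test of them as a group. In bulk RNA, fewer cells of a type and less RNA per cell cannot be told apart.

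**Figure D1:**
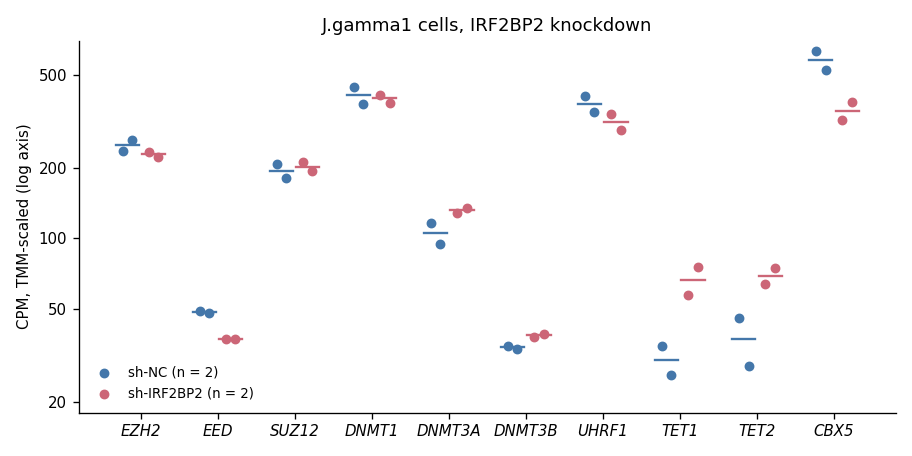
Level of each of the 10 genes in the J.gamma1 libraries, in TMM-scaled CPM on a log axis, with a point for each library and a line at the group mean (n = 2 sh-NC, blue, and n = 2 sh-IRF2BP2, red). TET1 and TET2 points lie higher with sh-IRF2BP2 (57.0 to 75.4 and 63.7 to 74.4 CPM), CBX5 points lie lower (319 and 382 against 632 and 522 CPM), and SUZ12 and DNMT1 points overlap between groups.

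TET1 (chr10:68560337-68694487 in hg38, plus strand, protein coding) had 34.5 and 26.0 CPM with sh-NC and 57.0 and 75.4 CPM with sh-IRF2BP2. Both knockdown libraries lay above both controls, although each group spread widely about its mean. The log2 fold change was 1.13 (SE 0.188, adjusted p = 0.0104, edgeR's quasi-likelihood test), and the gene stood at rank 507 by p. TET1 kept its call in each fit that left out a library, with log2 fold changes of 0.91 to 1.35.

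TET2 (chr4:105145875-105279816, plus strand, protein coding) had 45.5 and 28.5 CPM with sh-NC and 63.7 and 74.4 CPM with sh-IRF2BP2. Again the groups did not overlap, and sh-NC replicate 2 was the low library. Its log2 fold change was 0.90 (SE 0.213, adjusted p = 0.0352, edgeR). Without sh-IRF2BP2 replicate 2 it was 0.78, with an adjusted p of 0.057 by the same test. TET3, the remaining enzyme of the family, had 106 and 60.6 CPM with sh-NC and 172 and 156 CPM with sh-IRF2BP2 (log2 fold change 0.98, adjusted p = 0.0368). Its adjusted p was 0.056 without sh-IRF2BP2 replicate 1. Summed over TET1, TET2 and TET3, the level was 186 and 115 CPM with sh-NC and 293 and 306 CPM with sh-IRF2BP2. For each of the 3 genes, sh-NC replicate 2 was the lowest of the 4 libraries. This was not particular to the TET genes. It held as well for DNMT3A, JARID2, PHC3 and ZBTB4 (below), whereas KDM6B (below) was lowest in sh-NC replicate 1.

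CBX5 (chr12:54230942-54280133, minus strand, protein coding) had 632 and 522 CPM with sh-NC and 319 and 382 CPM with sh-IRF2BP2. Both knockdown libraries were lower than either control, with a log2 fold change of -0.72 (SE 0.154, adjusted p = 0.0257, edgeR). Without sh-IRF2BP2 replicate 1, the lower knockdown library, the log2 fold change was -0.62 and the adjusted p was 0.15. The other HP1 genes did not pass the test, with log2 fold changes of -0.23 for CBX1 (adjusted p = 0.25) and -0.22 for CBX3 (adjusted p = 0.27). The ratio of CBX5 to CBX3 in CPM was 1.80 and 1.47 with sh-NC and 1.03 and 1.29 with sh-IRF2BP2, so that the ratios did not overlap between groups.

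The PRC2 core was not called. EZH2, the catalytic subunit, had 237 and 264 CPM with sh-NC and 235 and 223 CPM with sh-IRF2BP2 (log2 fold change -0.13, SE 0.123, adjusted p = 0.53). SUZ12, the scaffold, had 208 and 180 CPM with sh-NC and 212 and 193 CPM with sh-IRF2BP2 (0.06, SE 0.130, adjusted p = 0.81). The EZH2 groups touched almost end to end and the SUZ12 groups overlapped. EED, which binds the trimethyl mark itself, had 49.1 and 47.9 CPM with sh-NC and 37.1 and 37.0 CPM with sh-IRF2BP2, with close replicates and no overlap, and its log2 fold change of -0.39 (SE 0.120) had an adjusted p of 0.079 by edgeR. Summed over the 3 subunits, the level was 495 and 492 CPM with sh-NC and 483 and 453 CPM with sh-IRF2BP2.

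Among the cytosine methyltransferases, DNMT1 had 445 and 374 CPM with sh-NC and 411 and 381 CPM with sh-IRF2BP2 (log2 fold change -0.05, SE 0.138, adjusted p = 0.86). UHRF1, its partner at the replication fork, had 404 and 346 CPM with sh-NC and 340 and 290 CPM with sh-IRF2BP2 (-0.25, SE 0.143, adjusted p = 0.30). The DNMT1 groups overlapped, and the UHRF1 groups nearly met. The de novo enzyme DNMT3A had 116 and 94.2 CPM with sh-NC and 129 and 135 CPM with sh-IRF2BP2 (log2 fold change 0.33, SE 0.136, adjusted p = 0.17). It reached an adjusted p of 0.020 when sh-NC replicate 1 was left out, with a log2 fold change of 0.48. DNMT3B had 34.6 and 33.8 CPM with sh-NC and 38.0 and 39.2 CPM with sh-IRF2BP2 (0.18, SE 0.124, adjusted p = 0.41). Both de novo enzymes thus lay higher without overlap, but neither was called.

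Of 72 partner genes tested, out of 74 listed, 6 were called higher and 6 lower, beside 5.83% higher and 5.32% lower among all genes, with a median log2 fold change of 0.11. DESeq2 called 14 higher and 9 lower, beside 1282 higher and 1180 lower among all 15819 genes tested. At an unadjusted p under 0.05 by edgeR, 2257 of all genes were higher and 2112 lower. These counts are given as a description of the partners, with no test of the list. DNMT3L had 0 counts in all 4 libraries, which allows up to 3 counts per library, and EZHIP had at most 5 counts. The list of HP1 and histone H3 lysine 9 methylation genes gave 0 calls by edgeR among 12 tested (median 0.03), with 3 genes higher at an unadjusted p under 0.05 and 3 called higher by DESeq2.

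Around PRC2, 1 of 10 partners tested was called higher and 2 lower (median 0.23). RBBP4, a histone-binding subunit that PRC2 shares with other complexes, had 710 and 704 CPM with sh-NC and 321 and 308 CPM with sh-IRF2BP2 (log2 fold change -1.17, adjusted p = 0.0022, edgeR). EZH1, the paralog of EZH2, had 31.4 and 33.0 CPM with sh-NC and 16.8 and 21.2 CPM with sh-IRF2BP2 (-0.76, adjusted p = 0.0237). JARID2, an accessory subunit that helps PRC2 bind chromatin, went the other way, with 254 and 219 CPM with sh-NC and 459 and 473 CPM with sh-IRF2BP2 (0.98, adjusted p = 0.0046). The replicates of RBBP4 and JARID2 lay close together and far from the other group. The call of EZH1 was lost without sh-IRF2BP2 replicate 1 (-0.63, adjusted p = 0.11). The ratio of EZH2 to EZH1 in CPM was 7.57 and 7.99 with sh-NC and 13.9 and 10.5 with sh-IRF2BP2, higher in both knockdown libraries.

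Of 24 PRC1 subunits, 1 was called higher and 1 lower, shares no larger than those among all genes (5.83% and 5.32%), with a median of 0.20. At an unadjusted p under 0.05, 7 were higher and 2 lower, and DESeq2 called 4 higher and 2 lower. Of all 15819 genes, 2257 were higher and 2112 lower at that p, and DESeq2 called 1282 higher and 1180 lower. L3MBTL2, found in a noncanonical PRC1, had 61.9 and 59.4 CPM with sh-NC and 27.3 and 26.4 CPM with sh-IRF2BP2 (log2 fold change -1.18, adjusted p = 0.0021, edgeR). PHC3, a polyhomeotic subunit of canonical PRC1, had 121 and 80.8 CPM with sh-NC and 165 and 169 CPM with sh-IRF2BP2 (0.73, adjusted p = 0.0426). PHC3 had an adjusted p of 0.081 without sh-IRF2BP2 replicate 1 and of 0.072 without replicate 2. Among 6 erasers of Polycomb marks, the demethylase KDM6B was the called gene, with 59.9 and 88.8 CPM with sh-NC and 175 and 281 CPM with sh-IRF2BP2. The rise in log2 terms was 1.62 (SE 0.255, adjusted p = 0.0086), and the knockdown libraries differed from each other by more than the controls did.

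Of 20 DNA methylation partners, 3 were called in each direction (median -0.12). TET3 (above) was among those that rose. ZBTB4, a zinc finger protein that binds methylated CpG, rose as well, with 39.8 and 35.5 CPM with sh-NC and 75.0 and 84.7 CPM with sh-IRF2BP2 (log2 fold change 1.09, adjusted p = 0.0031, edgeR). USP7, a deubiquitinase that stabilises UHRF1 and DNMT1, fell from 693 and 599 CPM to 438 and 423 CPM (-0.58, adjusted p = 0.0323). The isocitrate dehydrogenases IDH1 and IDH2, which make the cosubstrate of TET enzymes, fell as well, IDH1 by 0.64 (adjusted p = 0.0146) and IDH2 by 0.83 (adjusted p = 0.0438) on the log2 scale. For IDH2, the groups lay at 327 and 472 CPM with sh-NC and at 191 and 259 CPM with sh-IRF2BP2, wide in both. The calls of USP7, IDH1 and IDH2 were lost without sh-IRF2BP2 replicate 1 (adjusted p = 0.14, 0.094 and 0.16), and that of USP7 also without replicate 2 (0.17). UHRF2 (-0.16, adjusted p = 0.51) and the remodeller HELLS (-0.23, adjusted p = 0.24) were not called.

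**Figure D2:**
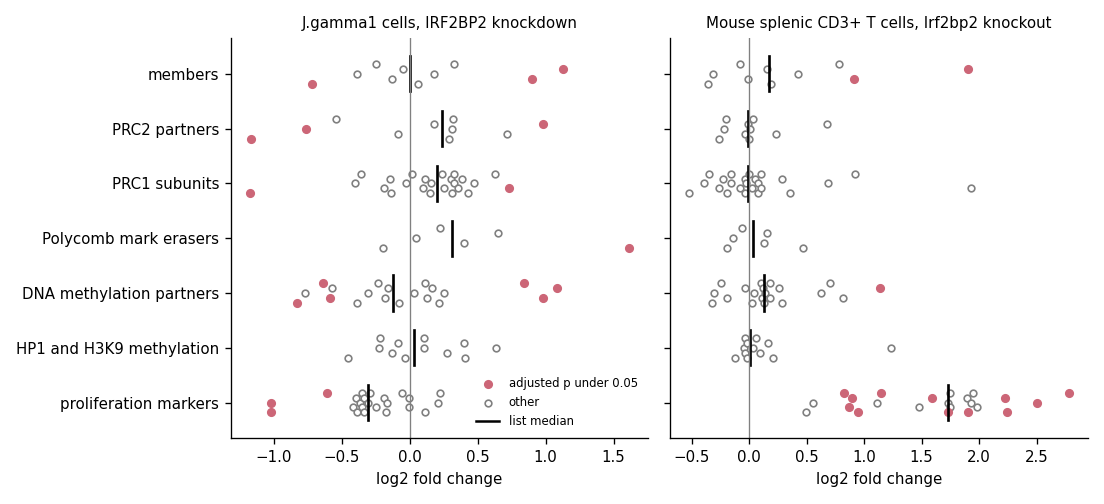
log2 fold changes of the 10 genes, of their partner lists and of the proliferation markers in J.gamma1 cells (left) and in mouse T cells (right). Each point is a gene, filled where its adjusted p was under 0.05, and the black bar is the list median. In J.gamma1 cells 6 of 72 partners were called higher and 6 lower, beside 5.83% and 5.32% of all genes. In mouse T cells 1 partner of 72, Hells, was called higher, beside 2.68% higher and 0.15% lower among all genes. The numbers of partners called are thus not compared between the systems. All 23 proliferation markers lay above 0 in mouse T cells.

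Words of 7 bases in 3' UTRs are given beside the called genes, because genes with GGTCTAA or AGGTCTA, which an earlier scan of these data had picked out, were lower as classes in sh-IRF2BP2 cells. Over 12547 genes with a 3' UTR scanned on the transcript strand, 640 genes (5.10%) held GGTCTAA. Of these, 19.7% were called lower, against 5.61% of the genes without it, and their median log2 fold change was -0.14. For AGGTCTA, which overlaps the other word by 6 bases and was held by 714 genes (5.69%), the shares were 20.6% and 5.47%. As the words were picked from these same data, the shares only describe the classes and are no test of them. Genes with either word have longer 3' UTRs, with a median of 3290 bases with GGTCTAA and 1253 bases without it. The shares were not matched for this length. CBX5, TET1 and TET2 hold neither word, CBX5 in a 3' UTR of 10813 bases. Among the called partners, RBBP4 holds each word once, and EZH1, L3MBTL2 and IDH1 hold AGGTCTA. DNMT3A is the member with GGTCTAA, and TET3, which rose, holds it too. The part of the words in these results was not tested.

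The sites below show the sequence that a gene that fell (RBBP4), a gene that rose (TET3) and an uncalled member (DNMT3A) have in common, read from GENCODE transcripts with hg38 positions, 5′ to 3′ on the strand of the gene, with the word in capitals. Positions are chr1:32679930-32679958 (plus) for RBBP4, chr2:74107288-74107316 (plus) for TET3 and chr2:25228830-25228858 (minus) for DNMT3A, each in the 3' UTR.
RBBP4: ctagtaacccaGGTCTAAagtagctacag
TET3: cagaaatgcaaGGTCTAAagttgcttttt
DNMT3A: acatgagcagcGGTCTAAagcatccccta

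Of 23 proliferation markers, 3 (PCNA, MCM3 and CDK1) were called lower and 0 higher by edgeR in sh-IRF2BP2 libraries, and at an unadjusted p under 0.05 there were 12 lower and 0 higher. DESeq2 called 8 lower and 0 higher. Over all 15819 genes, 2112 were lower and 2257 higher at an unadjusted p under 0.05, and DESeq2 called 1180 lower and 1282 higher. The median log2 fold change was -0.31, with 20 values below 0 and 3 above it, MKI67 at 0.22 among the latter. Their summed level was 9727 to 9774 CPM with sh-NC and 8055 to 8412 CPM with sh-IRF2BP2. The T cell markers gave 3 calls higher and 1 lower, and their summed level of 1880 to 2092 CPM with sh-NC overlapped that of 1866 to 2017 CPM with sh-IRF2BP2. The part of proliferation in the results of UHRF1, EZH2 and CBX5 was not tested.

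In mouse splenic CD3+ T cells, Uhrf1 and Cbx5 were called. Transcripts of the maintenance factor Uhrf1 were 3.74-fold higher in Irf2bp2 knockout libraries, and those of Cbx5 were 1.88-fold higher. The partner Hells, a remodeller needed for DNA methylation, also rose. Tet1 and Tet2, the PRC2 core and the 3 DNA methyltransferases were not called. Thus 2 of 10 members were called higher and 0 lower, beside 2.68% higher (412 genes) and 0.15% lower (23 genes) among all genes tested. By edgeR, 4 members were higher and 0 lower at an unadjusted p under 0.05, and DESeq2 called 3 higher and 0 lower. Among all 15350 genes, 1566 were higher and 922 lower at that p, and DESeq2 called 937 higher and 286 lower. The median log2 fold change was 0.17 over the members and -0.02 over all genes. The count of higher calls over all genes fell to 6 without control replicate 1, to 47 without knockout replicate 1 and to 9 without knockout replicate 2. The lower calls numbered 1, 3 and 1 in these fits, 65 without control replicate 2 and 51 without control replicate 3.

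**Figure D3:**
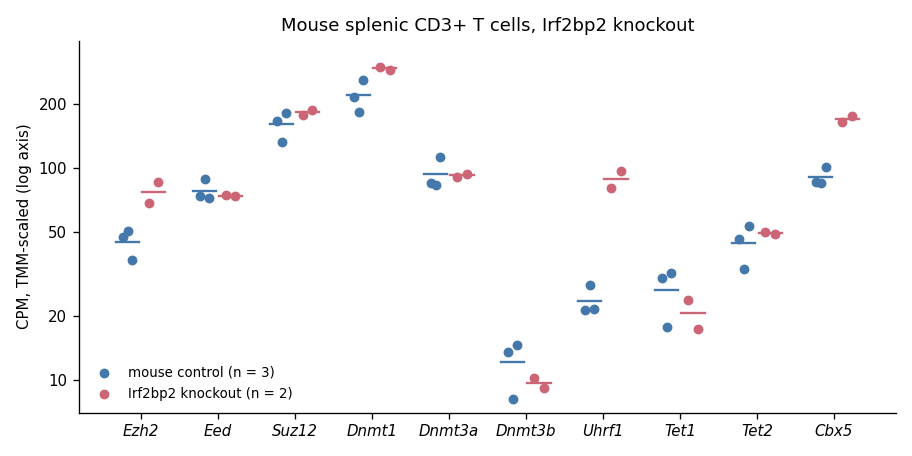
Level of each of the 10 genes in the mouse libraries, in TMM-scaled CPM on a log axis, with a point for each library and a line at the group mean (n = 3 controls, blue, and n = 2 knockout, red). Uhrf1 stands apart most clearly (21.4 to 28.0 CPM in controls, 80.5 and 96.8 CPM in the knockout), followed by Cbx5, while Eed, Dnmt3a, Tet1 and Tet2 overlap between groups.

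Uhrf1 (chr17:56303321-56323486 in mm10, plus strand, protein coding) had 21.4, 28.0 and 21.6 CPM in the controls and 80.5 and 96.8 CPM in the knockout libraries. The lowest knockout library lay far above the highest control. The log2 fold change was 1.90 (SE 0.171, adjusted p = 0.0084, edgeR's quasi-likelihood test), and the gene stood at rank 26 by p. The call was lost without control replicate 1 (1.84, adjusted p = 0.056) and without knockout replicate 2 (1.74, adjusted p = 0.089), with a change of similar size in both fits. Uhrf2, the paralog, was not called (0.18, adjusted p = 0.65), and the ratio of Uhrf1 to Uhrf2 in CPM was 0.247, 0.276 and 0.195 in the controls and 0.785 and 0.791 in the knockout libraries.

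Cbx5 (chr15:103191544-103239816, minus strand, protein coding) had 85.8, 84.8 and 101 CPM in the controls and 164 and 176 CPM in the knockout libraries. The groups were tight and did not overlap, with a log2 fold change of 0.91 (SE 0.132, adjusted p = 0.0211, edgeR). The adjusted p was 0.10 without control replicate 1, 0.16 without knockout replicate 1 and 0.24 without knockout replicate 2. Cbx1 (0.06, adjusted p = 0.88) and Cbx3 (-0.02, adjusted p = 0.96) were not called. The ratio of Cbx5 to Cbx3 in CPM was 0.650, 0.629 and 0.720 in the controls and 1.24 and 1.30 in the knockout libraries.

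Hells was the called gene among the 72 mouse partners tested, beside 2.68% called higher and 0.15% lower among all genes. Hells had 16.8, 15.6 and 18.4 CPM in the controls and 36.9 and 37.3 CPM in the knockout libraries. The log2 fold change was 1.13 (SE 0.149, adjusted p = 0.0156, edgeR). Its call was lost without control replicate 1 (adjusted p = 0.085), knockout replicate 1 (0.16) or knockout replicate 2 (0.20), with log2 fold changes between 1.10 and 1.14. The PRC2 partners, PRC1 subunits, erasers and HP1 list gave 0 calls by edgeR among 10, 24, 6 and 12 tested, with medians between -0.01 and 0.03. At an unadjusted p under 0.05 by edgeR, 3 PRC1 subunits were higher and 2 lower, and 1 gene of the HP1 list was higher. In these lists DESeq2 called 1 gene, of the HP1 list. Of 20 DNA methylation partners, Hells among them, 15 lay higher and 5 lower (median 0.13). In that list 4 were higher and 1 lower at an unadjusted p under 0.05, and DESeq2 called 2 higher. Among all 15350 genes, 1566 were higher and 922 lower at that p, and DESeq2 called 937 higher and 286 lower. Ezh1 (0.03, adjusted p = 0.96) and Tet3 (-0.04, adjusted p = 0.96) were not called. Dnmt3l had 0 counts in all 5 libraries, which allows up to 3 counts per library.

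Ezh2 had 47.3, 50.3 and 36.9 CPM in the controls and 68.7 and 85.7 CPM in the knockout libraries. Both knockout libraries were above all controls, yet the log2 fold change of 0.78 (SE 0.177) had an adjusted p of 0.080 by edgeR. With DESeq2 the adjusted p was 0.0052. The ratio of Ezh2 to Ezh1 in CPM was 0.431, 0.558 and 0.304 in the controls and 0.660 and 0.751 in the knockout libraries. The other core subunits were close to the controls. Eed had 74.1, 88.8 and 71.8 CPM in the controls and 74.5 and 73.8 CPM in the knockout libraries (-0.08, SE 0.138, adjusted p = 0.84), and Suz12 had 166, 133 and 183 CPM in the controls and 179 and 187 CPM in the knockout libraries (0.19, SE 0.162, adjusted p = 0.64). The ranges of both overlapped.

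Dnmt1 had 217, 185 and 261 CPM in the controls and 300 and 291 CPM in the knockout libraries, without overlap, and a log2 fold change of 0.42 (SE 0.168, adjusted p = 0.28, edgeR). Dnmt3a had 84.5, 83.4 and 113 CPM in the controls and 91.1 and 94.2 CPM in the knockout libraries (-0.01, SE 0.166, adjusted p = 0.98). Dnmt3b was low in all libraries, at 13.5, 8.10 and 14.6 CPM in the controls and 10.2 and 9.15 CPM in the knockout libraries (-0.32, SE 0.297, adjusted p = 0.68). Both de novo enzymes overlapped between the groups. Tet1 had 30.1, 17.7 and 32.0 CPM in the controls and 23.9 and 17.4 CPM in the knockout libraries (-0.36, SE 0.292, adjusted p = 0.63), and Tet2 had 46.4, 33.3 and 53.0 CPM in the controls and 49.8 and 48.6 CPM in the knockout libraries (0.16, SE 0.204, adjusted p = 0.78). For both, control replicate 2 was the lowest control and the groups overlapped.

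The summed levels of the proliferation and erythroid markers, like Uhrf1, Cbx5 and Hells, were higher in both knockout libraries than in any control. All 23 proliferation markers had a positive log2 fold change and 12 were called, with a median of 1.73, and their summed level was 884 to 1235 CPM in the controls and 2501 to 2792 CPM in the knockout libraries. Mki67, the usual marker of cycling cells, had 68.4, 78.1 and 45.9 CPM in the controls and 409 and 475 CPM in the knockout libraries. All 14 erythroid markers tested were higher and 8 were called (median 2.71), with summed levels of 2279, 1303 and 607 CPM in the controls and 4738 and 6605 CPM in the knockout libraries. All 8 plasma cell markers had a positive log2 fold change (median 0.82), and Prdm1 was called by edgeR (1.42, adjusted p = 0.0317). At an unadjusted p under 0.05, 5 of the 8 were higher, and DESeq2 called 2 higher. Among all 15350 genes, 1566 were higher at that p and DESeq2 called 937 higher. The summed level of the list was 435 to 1183 CPM in the controls and 1174 to 1546 CPM in the knockout libraries, overlapping through control replicate 1.

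The 13 T cell markers gave 0 calls by edgeR, although 12 had a negative log2 fold change (median -0.36), 6 were lower at an unadjusted p under 0.05 and DESeq2 called 3 lower. Among all 15350 genes, 922 were lower at that p and DESeq2 called 286 lower. Their summed level was 5362 to 6217 CPM in the controls and 4247 to 4512 CPM in the knockout libraries. B cell and myeloid markers gave 0 calls by edgeR among 10 and 11 tested, 0 at an unadjusted p under 0.05 and 0 by DESeq2. Their summed levels overlapped between the groups, with 38.1 to 288 and 46.5 to 437 CPM in the controls and 40.7 to 135 and 102 to 162 CPM in the knockout libraries. Ly6g had 10 counts in control replicate 2 and 0 counts in the other libraries, Ahsp was not matched, and every other marker was detected in all 5 libraries. The sort was for CD3+ cells. The part of cycling, erythroid and plasma cells in the results of Uhrf1, Cbx5, Hells and Ezh2 was not tested.

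**Figure D4:**
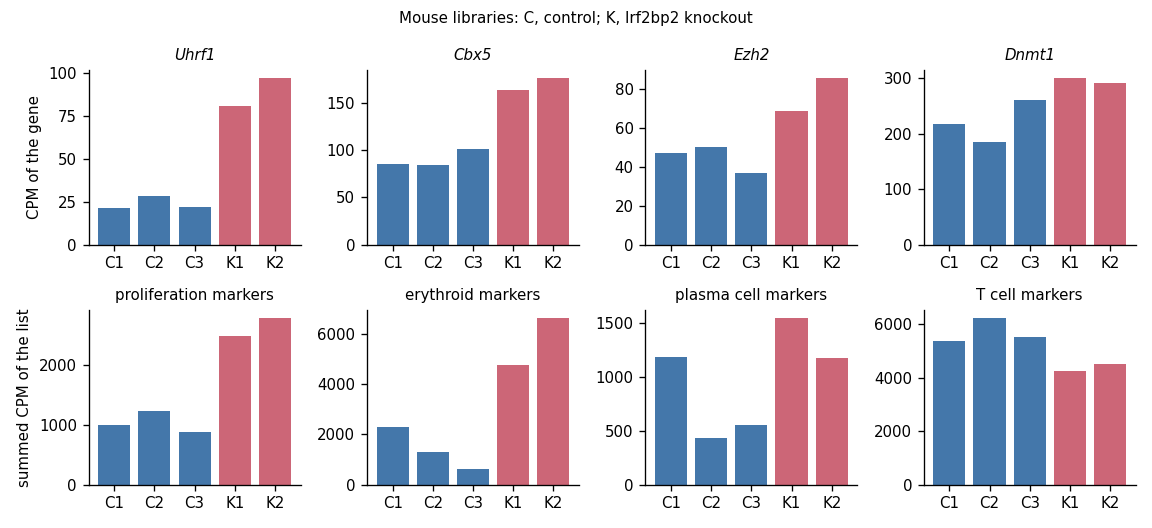
Bars give, for each mouse library (C1 to C3, controls, blue; K1 and K2, knockout, red), the CPM of Uhrf1, Cbx5, Ezh2 and Dnmt1 (top) and the summed CPM of 4 marker lists (bottom), on linear axes from 0. The 4 genes and the proliferation and erythroid lists are higher in both knockout libraries than in any control, the plasma cell list overlaps through C1, and the T cell list is lower in both knockout libraries.

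E2F factors control many replication genes, and a motif they bind could be sought in the promoters of the 3 mouse genes that rose. The motifs searched were TTTCCCGC and TTTGGCGC, on both strands, from 250 bases before to 50 bases after the start, and overlapping matches were all counted. The sequences show the contrast between the windows, with 150 bases of Uhrf1 and Cbx5 that end 20 bases short of the RefSeq start site and the matched site of Hells with its flanks (RefSeq, GRCm38.p6, 5′ to 3′ on the strand of the gene, motif in capitals). Positions are chr17:56303167-56303316 (plus) for Uhrf1, chr15:103239873-103240022 (minus) for Cbx5 and chr19:38930917-38930946 (plus) for Hells.
Uhrf1: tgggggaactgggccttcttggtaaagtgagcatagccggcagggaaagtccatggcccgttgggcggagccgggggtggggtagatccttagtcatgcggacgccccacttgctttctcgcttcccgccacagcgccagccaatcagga
Cbx5: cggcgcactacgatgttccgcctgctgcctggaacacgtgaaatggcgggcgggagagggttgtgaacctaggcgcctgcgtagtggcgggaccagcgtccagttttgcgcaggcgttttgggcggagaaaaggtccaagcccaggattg
Hells: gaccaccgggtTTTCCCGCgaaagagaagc

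Hells held TTTCCCGC upstream of its start, and the windows of Uhrf1 and Cbx5 held neither motif. Among the mouse members, Ezh2 held TTTGGCGC and Suz12 held TTTCCCGC, and neither of these genes was called. In the human windows, set at the canonical GENCODE start in hg38, EZH2, SUZ12 and UHRF1 held a motif and TET1, TET2 and CBX5 did not. Either motif was found in 3.08% of 20020 human and 2.09% of 17492 mouse promoters of protein-coding genes. No match says only that these letters are not in this window.

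Set side by side, CBX5 was called in both systems with opposite signs, at -0.72 in J.gamma1 cells and 0.91 in mouse T cells. UHRF1 had -0.25 (not called) and 1.90, and EZH2 had -0.13 and 0.78 (neither called). TET1 had 1.13 in J.gamma1 cells and -0.36 in mouse T cells (not called), and TET2 had 0.90 and 0.16 (not called). No gene of the 10 was called with the same sign in both. Species, cell state, the way of depletion and the tables differ together between the comparisons, so that the differences between them were not tested.

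**Figure D5:**
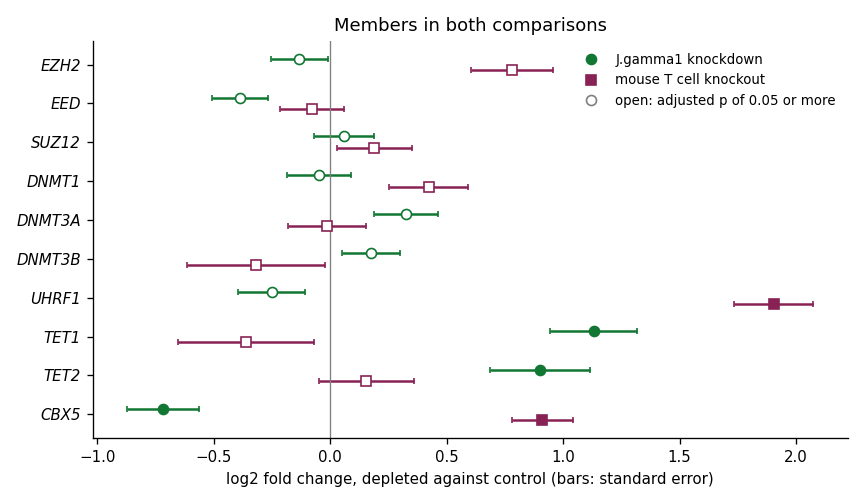
log2 fold change of each of the 10 genes after depletion of IRF2BP2, with bars of 1 SE, in J.gamma1 cells (circles, n = 2 against 2) and in mouse T cells (squares, n = 2 against 3), filled where the adjusted p was under 0.05. CBX5 lies on opposite sides of 0 (-0.72 and 0.91), UHRF1 stands at 1.90 in mouse T cells, and TET1 and TET2 stand at 1.13 and 0.90 in J.gamma1 cells.

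Levels were compared between genes per kilobase of the longest annotated transcript. In sh-NC cells the order on this scale was UHRF1 (87.1 CPM per kb), DNMT1 (57.2), EZH2 (55.7), CBX5 (49.96), SUZ12 (43.2), EED (17.5), DNMT3A (11.1), DNMT3B (7.82), TET2 (3.64) and TET1 (3.15). With the median transcript length in its place, CBX5 led at 423 CPM per kb and UHRF1 was at 105, so that the order of the upper genes depended on the length used, whereas DNMT3B, TET2 and TET1 stood last on both. In control mouse T cells Eed (37.9), Dnmt1 (37.6) and Suz12 (36.7 CPM per kb of the longest transcript) led, Uhrf1 was at 6.60, and Dnmt3b (2.79) and Tet1 (1.85) were lowest. With the median transcript length, Suz12 (254.6), Eed (117) and Dnmt3a (114 CPM per kb) led and Tet1 was at 44.4, so that the mouse order, Tet1 included, depended on the length used, whereas Dnmt3b (2.94) and Uhrf1 (6.98) were lowest. In the control libraries, the ratio of UHRF1 to DNMT1 in CPM was 0.909 and 0.925 in J.gamma1 cells and 0.0987, 0.152 and 0.0828 in mouse T cells. In the knockout libraries it was 0.269 and 0.332, above all mouse controls. With sh-IRF2BP2 the ratio was 0.8267 and 0.7625, below both sh-NC libraries. These ratios were not scaled by transcript length.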

How the data were processed

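RNA-seq libraries of J.gamma1 cells (2 sh-NC, 2 sh-IRF2BP2) and of sorted mouse CD3+ T cells (3 control, 2 Irf2bp2 knockout) were compared within their own tables. The authors aligned reads with HISAT2 2.2.0 to hg38 or mm10, estimated abundance with StringTie (submitters' processing notes) and deposited raw counts, whole numbers for each Ensembl gene and library, not normalized or pooled. How coverage became counts, and whether strand was used, is not given in the sources used here. Reads of overlapping genes and of the pseudogene SUZ12P1 (305 to 452 counts) may therefore be shared.

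Rows were limited to genes of GENCODE 44 or M21. Genes that passed filterByExpr were put through TMM scaling and the quasi-likelihood test of edgeR 4.0.16 in R 4.3.3, with condition as the only term and no fold threshold. The biological coefficient of variation was 0.165 (J.gamma1) and 0.271 (mouse), with 2 and 3 residual degrees of freedom. Replicates differed by more than sampling noise (chi-square per gene at least 20.0). Named genes were the 10 members, all called partners (at most 6 per list, table and direction), EZH1, TET3, UHRF2, HELLS, CBX1, CBX3 and IRF2BP2, and markers by list; Mki67, Prdm1, Ly6g, Ahsp, PCNA, MCM3, CDK1, DNMT3L and EZHIP were named after their values were seen. Some items that met this rule are left out here. Members and lists were chosen with earlier results of these data known. Sequences were read with Python 3.11.15. In counts simulated for 15484 genes of the J.gamma1 design, edgeR recovered 104 of 200 genes changed by 1.5 or 2 fold, with 5 false calls. In the mouse design it recovered 60 of 200 among 15013 genes, with 3 false calls. The changed genes were drawn only from genes with higher counts. Simulated counts varied by the spread that edgeR fitted for genes of like abundance, with no deviating library. These numbers may therefore be better than in the real libraries. The alternatives are given below.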

Additional observations from a re-analysis of the deposited data

Results flagged for a closer look

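CBX5, UHRF1 and EZH2 were higher in every knockout mouse library than in every control and lower in every sh-IRF2BP2 library than in every sh-NC library. They were picked by this rule, and the share of all genes that met it is not given. In J.gamma1 cells the nearest sh-IRF2BP2 and sh-NC libraries had 235 and 237 CPM for EZH2 and 340 and 346 CPM for UHRF1. Neither of these genes was called there. For CBX5 the log2 fold change was -0.72 in J.gamma1 cells and 0.91 in mouse T cells, 1.63 apart. For UHRF1 it was -0.25 and 1.90, 2.16 apart, and for EZH2 it was -0.13 and 0.78, 0.914 apart. The differences between the systems were not tested.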

How the results depend on the processing

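With 2 libraries in an arm, leaving one out leaves a lone library, which is then assumed to vary like the others. In J.gamma1 cells, keeping each gene with 1 count or more in any library gave 0 members lower and 1 higher (all genes 396 lower, 319 higher), with TET2 at an adjusted p of 0.12 and CBX5 at 0.063 by edgeR. Leaving out each library gave 0 to 1 members lower and 1 to 3 higher, and 419 to 1384 genes lower and 418 to 1863 higher. TET1 kept its call under all alternatives run. Of the other named genes, EZH1, TET3, USP7, PHC3 and IDH2 were not called under that filter, and PHC3 and IDH2 not with all rows. In mouse T cells, leaving out each library gave 0 to 2 members higher, and 1 to 65 genes lower and 6 to 594 higher. A log2 fold change of at least 1 left 1 member higher (Uhrf1). DESeq2 called 286 genes lower and 937 higher, Ezh2 among the members, and counts divided by 2 gave 37 lower.

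Samples of the groups share only a replicate number. Same-numbered J.gamma1 libraries had deviations correlated at 0.225, and with 2 pairs the value is the same for both by construction. For the mouse the correlation was 0.151 for replicate 1 and -0.161 for replicate 2. With the replicate block, 2 J.gamma1 members were lower (EED joined, -0.39, adjusted p = 0.034) and 2 higher, among 1663 genes lower and 1884 higher, and the mouse members gave 2 higher, among 53 genes lower and 443 higher.

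Small, uncalled changes turned sign. SUZ12 ranged from -0.043 to 0.16 and DNMT1 from -0.17 to 0.078 over the fits that left out a library, Eed from -0.14 to 0.040, Dnmt3a from -0.073 to 0.14, Ezh1 from -0.063 to 0.12, Tet3 from -0.16 to 0.16, Cbx1 from -0.021 to 0.12 and Cbx3 from -0.057 to 0.00088. With at least 10 counts in every library, Dnmt3a was 0.031, Tet3 0.0074 and Cbx3 0.027, and with the replicate block they were 0.14, 0.17 and 0.0067. Among the called members, 35 of 39 J.gamma1 and 22 of 28 mouse refits kept direction and side of the threshold, and the others kept direction. Among the other called genes named, these were 154 of 169 and 11 of 14. The scaling moved the median of all genes by at most 0.054 in size.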
